A study of Mus musculus with 15 samples.

Results

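The genes of classical antigen presentation were followed through development of the mouse secondary palate. They comprised 10 genes taken by name as the chains and processing machinery of the major histocompatibility complex (MHC), of 54232 genes in the deposited table: the class I chains B2m, H2-D1 and H2-K1, the peptide transporter subunits Tap1 and Tap2, the immunoproteasome subunits Psmb8 and Psmb9, and the class II genes Cd74, H2-Aa and H2-Ab1. They were listed by gene name, with earlier results of these data known. By the positions in the table, given here on GRCm38, 8 of the 10 lie on chromosome 17. The palatal shelves came from mice with the genotype label WT at 4 embryonic ages (E, in days), E13.5, E14.5, E15.5 and E16.5, and at P0, which the labels call postnatal. The 15 libraries, 3 for each age, were each made from the shelves of 3 pooled embryos, so errors here describe pools and not single animals. No treatment and no other genotype was included. The strain is not given in the labels, and MHC genes differ between mouse strains. Libraries held 21.5 to 69.0 M assigned fragments, with a median of 61.0 M, and 3 counts, taken as the level below which a gene was not detectable, equalled 0.0435 to 0.140 CPM (counts scaled to 1 library total for all). All 10 genes passed the filter on low counts, which kept 22151 genes. Their lowest counts were 21 for Psmb9 and 34 for H2-Aa, both at E13.5.

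MHC class I molecules are made by most nucleated cells and consist of a polymorphic heavy chain, here from H2-D1 or H2-K1, bound to beta-2 microglobulin, the product of B2m. They display peptides that the proteasome cuts in the cytosol and that the Tap1 and Tap2 pump carries into the endoplasmic reticulum. Interferons raise many of these genes and exchange the catalytic proteasome subunits Psmb5, Psmb6 and Psmb7 for the immunoproteasome subunits Psmb8, Psmb9 and Psmb10. MHC class II molecules, here the alpha chain H2-Aa and the beta chain H2-Ab1, are made mainly by dendritic cells, macrophages and B cells, and the invariant chain Cd74 occupies their groove until peptides from endosomes replace it.

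Upstream sequence was available from RefSeq (GRCm38.p6) for 7 of the 10 genes, as 8 windows of 250 bases before to 50 bases after a start site. 4 kinds of letters known from MHC promoters were searched on both strands: an interferon-stimulated response element (ISRE, GAAANNGAAA), a gamma-activated site (GAS, TTCNNNGAA), a kappa B site (GGGATTCCC) and the Y box (ATTGG, or CCAAT read from the other strand). In the lines printed here capitals mark matches to any of these, and every sequence runs 5′ to 3′ on the strand of its gene. The windows of B2m and H2-Aa are shown as one class I and one class II promoter, and that of Tap1 because it also holds the start site of Psmb9 on the opposite strand.

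B2m, chr2:122147437-122147736, plus strand: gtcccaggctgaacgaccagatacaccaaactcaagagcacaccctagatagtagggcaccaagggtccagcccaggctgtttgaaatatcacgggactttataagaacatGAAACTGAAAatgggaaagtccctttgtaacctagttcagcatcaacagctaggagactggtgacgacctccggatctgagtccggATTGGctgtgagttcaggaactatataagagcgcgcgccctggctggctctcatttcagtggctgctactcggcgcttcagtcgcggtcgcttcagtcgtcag
Tap1, chr17:34187306-34187605, plus strand: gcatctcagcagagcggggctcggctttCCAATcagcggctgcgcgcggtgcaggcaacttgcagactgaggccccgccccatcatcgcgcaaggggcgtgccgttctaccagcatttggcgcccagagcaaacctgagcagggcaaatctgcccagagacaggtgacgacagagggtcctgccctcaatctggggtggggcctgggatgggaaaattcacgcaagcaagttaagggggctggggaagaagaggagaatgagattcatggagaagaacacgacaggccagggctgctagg
H2-Aa, chr17:34287774-34288073, minus strand: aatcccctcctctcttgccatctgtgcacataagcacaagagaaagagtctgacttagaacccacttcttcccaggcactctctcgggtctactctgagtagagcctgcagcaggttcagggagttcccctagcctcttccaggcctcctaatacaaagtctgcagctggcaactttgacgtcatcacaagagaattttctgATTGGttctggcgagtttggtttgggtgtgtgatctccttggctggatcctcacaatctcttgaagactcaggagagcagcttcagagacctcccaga
H2-D1, chr17:35262904-35262983, plus strand: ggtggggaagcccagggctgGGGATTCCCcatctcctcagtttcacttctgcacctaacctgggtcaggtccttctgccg
H2-K1, chr17:34000398-34000477, minus strand: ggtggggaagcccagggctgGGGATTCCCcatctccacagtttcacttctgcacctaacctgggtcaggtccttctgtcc

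The last pair of lines sets 80 bases of H2-D1 and H2-K1 side by side, because these heavy chain genes lie apart on chromosome 17 and carry the same kappa B letters. In these 80 bases 77 were identical, and over the 240 bases that both windows cover on this alignment 176 were identical (73.3%). The ISRE letters were found in B2m alone (139 to 130 bases before its start site), and the GAS letters in Psmb8 alone (97 to 89 bases before). The kappa B letters were found in H2-D1 and in both windows of H2-K1. The Y box letters were found in 7 of the 8 windows, the exception being Psmb8. Of 32851 mouse windows of the same length, 3.44% held the ISRE letters, 8.3% the GAS letters, 0.353% the kappa B letters and 37.4% the Y box letters. By RefSeq the start sites of Tap1 and Psmb9 lay 226 bases apart and pointed away from each other. Their windows shared 275 bases, among them the single Y box match of each, which is the same 5 bases. In the annotation used for counting, exons of Tap1 and Psmb9 share 212 bases on opposite strands. The windows of H2-D1, Psmb8 and Psmb9 lie inside the genes as counted, which begin further upstream. Only these exact letters were searched, so variant forms of the sites were left unmarked. A window without a match may still hold such a site. A match describes letters and says nothing of binding in the palate.

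Between E13.5 and P0 every antigen presentation gene rose. By edgeR's quasi-likelihood test, adjusted over 22151 genes, 10 of 10 were higher at P0, where 29.8% of all tested genes were. The fitted log2 fold changes ran from 1.41 for B2m to 3.41 for Tap2, with a median of 2.61 against a median of 0.03 over all tested genes. In 10 of 10 genes the lowest P0 library lay above the highest E13.5 library, which held for 30.2% of tested genes in that direction. Across the 5 stages 10 of 10 also passed (59.1% of tested genes did), with adjusted p from 3.85e-06 for H2-D1 to 0.00359 for Cd74. Both counts stayed at 10 when any 1 library was left out. In bulk tissue fewer cells of a type and less RNA per cell cannot be told apart, so every level here is one of the whole shelf. The stage means of 8 genes followed the order of age. The exceptions were Tap1, lowest at E14.5, and H2-Aa, whose E15.5 mean was above that at E16.5, in both cases with overlapping libraries.

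**Figure D1:**
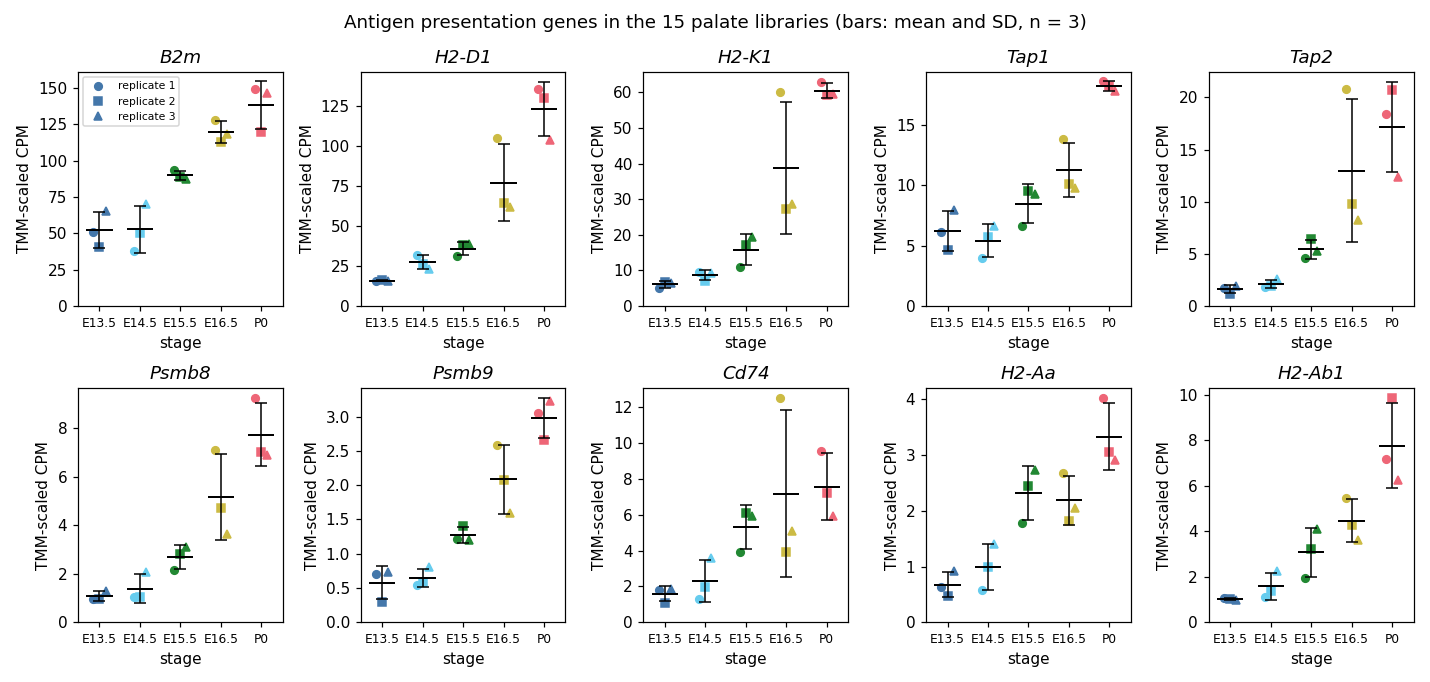
TMM-scaled CPM of the 10 antigen presentation genes in each of the 15 libraries by stage, with points for replicates and bars for the mean and SD (n = 3). For every gene the 3 P0 libraries lie above the 3 E13.5 libraries, and at E16.5 replicate 1 is the highest library.

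The class I chains had the highest levels per kilobase of the 10 and rose unequally. B2m (ENSMUSG00000060802.8, chr2:122147686-122153083, plus strand), which encodes the light chain shared by all class I molecules, had 50.9, 40.6 and 65.1 CPM at E13.5, 37.6, 50.2 and 70.3 at E14.5, 93.5, 89.1 and 87.4 at E15.5, 128, 113 and 118 at E16.5 and 149.5, 119.5 and 147 at P0. The E13.5 and E14.5 libraries overlapped, and all later libraries were above them. The fitted log2 fold change from E13.5 to P0 was 1.41 (SE 0.21, adjusted p = 0.000148). H2-D1 (ENSMUSG00000073411.11, chr17:35262730-35267499, plus strand) encodes one of the classical heavy chains and had 15.6, 16.2 and 15.7 CPM at E13.5, 32.1, 26.3 and 23.5 at E14.5, 31.1, 38.03 and 38.9 at E15.5, 105, 64.6 and 61.9 at E16.5 and 136, 130.3 and 104 at P0. Its E13.5 libraries were nearly equal, its E14.5 and E15.5 libraries overlapped, and its E16.5 libraries ranged widely with 1 inside the P0 range. Its log2 fold change was 2.96 (SE 0.21, adjusted p = 2.33e-06). H2-K1 (ENSMUSG00000061232.15, chr17:33996017-34000333, minus strand), the other heavy chain, had 5.01, 6.63 and 6.58 CPM at E13.5, 9.58, 7.01 and 9.31 at E14.5, 10.9, 17.3 and 19.3 at E15.5, 60.1, 27.3 and 28.7 at E16.5 and 62.9, 59.2 and 59.4 at P0. Its E15.5 libraries lay above all E14.5 libraries, with E16.5 replicate 1 again at the P0 level and the other E16.5 libraries below it, and its log2 fold change was 3.32 (SE 0.32, adjusted p = 9.05e-06).

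Genes were compared per kilobase of exon. The lengths take in every annotated exon of a gene, so levels set between genes depend on the annotation. On this scale B2m stood at 60.7 ± 14.3 CPM per kb (mean ± SD, n = 3) at E13.5 and 161 ± 19.3 at P0. H2-D1 went from 6.13 ± 0.131 to 47.8 ± 6.61 CPM per kb and H2-K1 from 2.33 ± 0.352 to 23.2 ± 0.785. The light chain thus exceeded both heavy chains in mean level at both ages, while the gap narrowed. The ratio of H2-D1 plus H2-K1 to B2m, per kb, was 0.135, 0.187 and 0.114 in the E13.5 libraries and 0.441, 0.527 and 0.369 in the P0 libraries. Both sets were apart, and the ratio was 3.11-fold higher at P0 (exact two-sided permutation test, p = 0.1, the smallest that 3 against 3 libraries can give). At E14.5 the ratio ranged from 0.155 to 0.368 and overlapped both neighbouring stages. H2-D1 stayed above H2-K1 per kb, with a ratio of 3.14, 2.47 and 2.41 at E13.5 and 2.18, 2.22 and 1.77 at P0, 0.772 times the earlier value (exact permutation test, p = 0.1). This last ratio, like that of Tap2 to Tap1 and that of the heavy chains to myeloid markers, was added after the data had been seen, and 9 ratios were computed in all, none of which could pass 0.05 with 3 libraries a stage. Adjusted over the 9 by Benjamini-Hochberg, an exact permutation p of 0.1 became 0.129 and one of 0.2 stayed at 0.2. Heavy chain sequences resemble one another: in GENCODE M21 transcripts 3.59% of 100-base stretches of H2-D1 and 0.957% of those of H2-K1 also occurred in other genes, and 12.8% and 9.63% of 50-base stretches, so their counts carry some uncertainty. For the other 8 genes no 100-base stretch was shared.

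**Figure D2:**
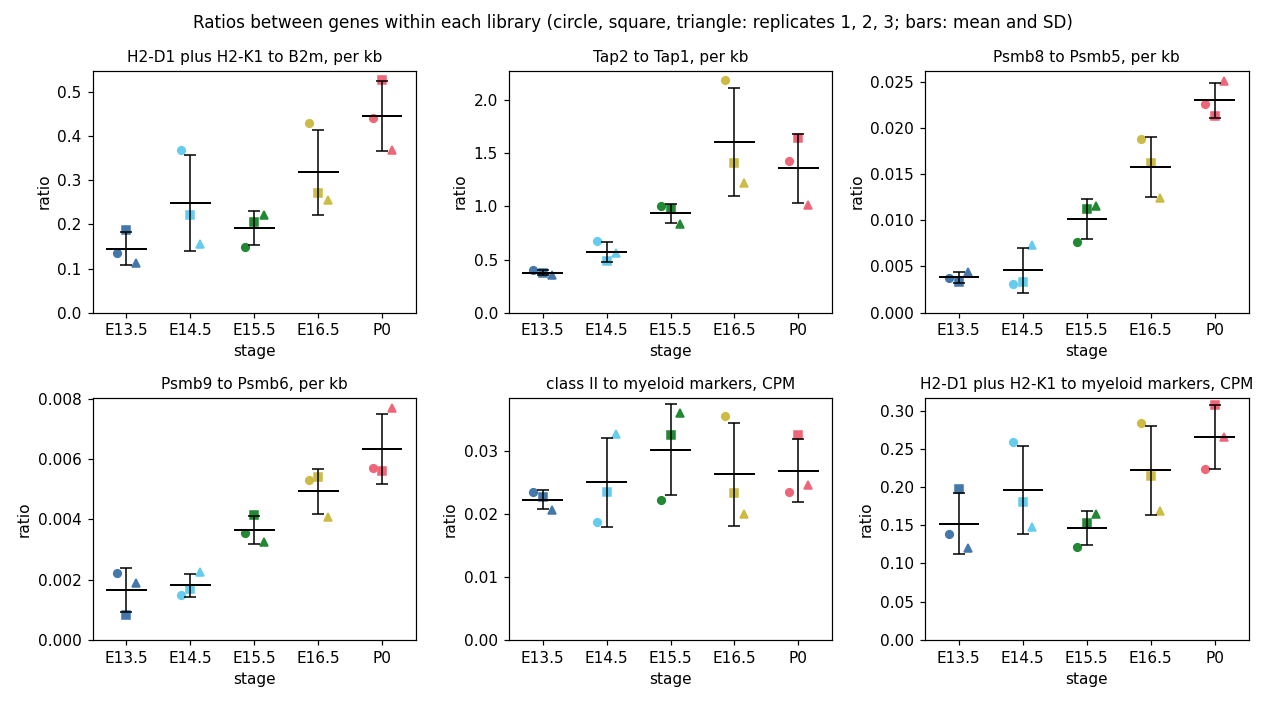
Ratios between genes within each library by stage, per kilobase of exon in the first 4 panels and in CPM in the panels against myeloid markers, with points for replicates and bars for the mean and SD (n = 3). The heavy chains gained on B2m, Tap2 on Tap1 and Psmb8 on Psmb5. The ratio of class II genes to myeloid markers overlapped between E13.5 and P0, an overlap that is lost with Lyz2 left out of the markers.

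The transporter subunits differed in course. Tap1 (ENSMUSG00000037321.17, chr17:34187553-34197225, plus strand) had 6.15, 4.62 and 7.93 CPM at E13.5, 3.97, 5.71 and 6.60 at E14.5, 6.64, 9.54 and 9.25 at E15.5, 13.8, 10.1 and 9.81 at E16.5 and 18.7, 18.3 and 17.8 at P0. The E13.5 and E14.5 libraries overlapped and the P0 libraries lay in a narrow band above all others, giving a log2 fold change of 1.55 (SE 0.25, adjusted p = 0.000248). Tap2 (ENSMUSG00000024339.12, chr17:34203527-34216321, plus strand), which encodes the partner of Tap1 in the peptide pump, had 1.69, 1.20 and 1.95 CPM at E13.5, 1.84, 1.91 and 2.57 at E14.5, 4.58, 6.42 and 5.31 at E15.5, 20.8, 9.82 and 8.29 at E16.5 and 18.4, 20.7 and 12.4 at P0. Its E16.5 replicate 1 was the highest of the 15 libraries, and its log2 fold change of 3.41 (SE 0.37, adjusted p = 1.71e-05) was the highest of the 10 genes. Per kb, Tap2 stood at 0.398, 0.375 and 0.355 times Tap1 in the E13.5 libraries and 0.670, 0.484 and 0.564 at E14.5. The ratio was 1.00, 0.976 and 0.830 at E15.5, 2.19, 1.41 and 1.22 at E16.5 and 1.43, 1.64 and 1.01 at P0. Per kb, Tap2 was below Tap1 in every library up to E14.5 and above it in every library from E16.5. This crossing rests on the exon lengths, 5476 bases for Tap1 and 3781 for Tap2. In CPM, Tap2 was above Tap1 only in E16.5 replicate 1 and P0 replicate 2. The ratio was 3.54-fold higher at P0 than at E13.5 (exact permutation test, p = 0.1). Exons of Tap2 share 533 bases with Gm15821 and 165 bases with Gm20496 on the opposite strand, and Tap1 shares 212 bases with Psmb9; the recorded counting command used strand.

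The immunoproteasome subunits rose by more than the constitutive subunits they replace, whose fitted log2 fold changes were at most 0.43. Psmb8 (ENSMUSG00000024338.14, chr17:34197721-34201454, plus strand) encodes the subunit that takes the place of Psmb5 and had 0.960, 0.943 and 1.31 CPM at E13.5, 1.03, 1.04 and 2.06 at E14.5, 2.16, 2.80 and 3.11 at E15.5, 7.12, 4.73 and 3.65 at E16.5 and 9.23, 7.04 and 6.92 at P0. From E15.5 on every library was above all E13.5 and E14.5 libraries, and the log2 fold change was 2.85 (SE 0.34, adjusted p = 3.30e-05). Psmb9 (ENSMUSG00000096727.2, chr17:34181988-34187764, minus strand), the counterpart of Psmb6, had 0.702, 0.296 and 0.728 CPM at E13.5, 0.545, 0.590 and 0.800 at E14.5, 1.21, 1.40 and 1.20 at E15.5, 2.59, 2.07 and 1.59 at E16.5 and 3.05, 2.65 and 3.22 at P0. It was the lowest of the 10 genes per kb at both ages, at 0.157 ± 0.0662 CPM per kb at E13.5 and 0.813 ± 0.0798 at P0, and its log2 fold change was 2.37 (SE 0.33, adjusted p = 8.41e-05). Of the constitutive subunits 1 of 3 passed the test: Psmb6 was higher at P0 with a log2 fold change of 0.43 (SE 0.12, adjusted p = 0.0105), while Psmb5 had 0.28 (adjusted p = 0.118) and Psmb7 0.29 (adjusted p = 0.0627). The ratio of Psmb8 to Psmb5, per kb, was 0.00378, 0.00328 and 0.00445 in the E13.5 libraries and 0.0226, 0.0213 and 0.0250 in the P0 libraries, 6.02-fold higher. That of Psmb9 to Psmb6 was 0.00223, 0.000830 and 0.00188 and 0.00572, 0.00561 and 0.00769, 4.14-fold higher. Neither ratio overlapped between the ages (exact permutation test, p = 0.1 for each), and at P0 the mRNA of both immunoproteasome subunits remained at most 0.0250 of that of the constitutive ones, per kb. Psmb10, the third inducible subunit, is the exception in level: its ratio to Psmb7, per kb, was 0.125 ± 0.00444 (SD, n = 3) at E13.5 and 0.220 ± 0.0435 at P0, 1.74-fold higher (exact permutation test, p = 0.1).

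The class II genes also rose, from low levels. Cd74 (ENSMUSG00000024610.14, chr18:60803848-60812646, plus strand), the invariant chain, had 1.79, 1.10 and 1.87 CPM at E13.5, 1.32, 1.95 and 3.59 at E14.5, 3.89, 6.11 and 5.94 at E15.5, 12.5, 3.90 and 5.11 at E16.5 and 9.57, 7.22 and 5.92 at P0. The libraries of E15.5, E16.5 and P0 overlapped, with the highest and one of the lowest of these at E16.5, and the log2 fold change from E13.5 to P0 was 2.25 (SE 0.47, adjusted p = 0.00150). H2-Aa (ENSMUSG00000036594.14, chr17:34282744-34287827, minus strand), the alpha chain, had 0.630, 0.479 and 0.921 CPM at E13.5, 0.576, 0.999 and 1.40 at E14.5, 1.79, 2.44 and 2.73 at E15.5, 2.67, 1.82 and 2.06 at E16.5 and 4.02, 3.05 and 2.92 at P0. Its E15.5 and E16.5 libraries overlapped, and its log2 fold change was 2.30 (SE 0.35, adjusted p = 0.000171). H2-Ab1 (ENSMUSG00000073421.5, chr17:34263209-34269418, plus strand), the beta chain, had 1.07, 1.04 and 0.995 CPM at E13.5, 1.11, 1.39 and 2.25 at E14.5, 1.96, 3.20 and 4.09 at E15.5, 5.48, 4.26 and 3.62 at E16.5 and 7.18, 9.85 and 6.27 at P0. Here the P0 libraries lay above all others, and the log2 fold change was 2.90 (SE 0.34, adjusted p = 2.83e-05). Per kb at P0, Cd74 stood at 5.37 ± 1.31 CPM per kb, H2-Ab1 at 4.74 ± 1.14 and H2-Aa at 1.78 ± 0.322, against 47.8 ± 6.61 for the class I heavy chain H2-D1. Cd74 and H2-Ab1 do not differ beyond their spread in this order. The ratio of Cd74 to the sum of H2-Aa and H2-Ab1, per kb, was 1.28, 0.873 and 1.21 at E13.5 and 1.04, 0.670 and 0.779 at P0, which overlapped (exact permutation test, p = 0.2).

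**Figure D3:**
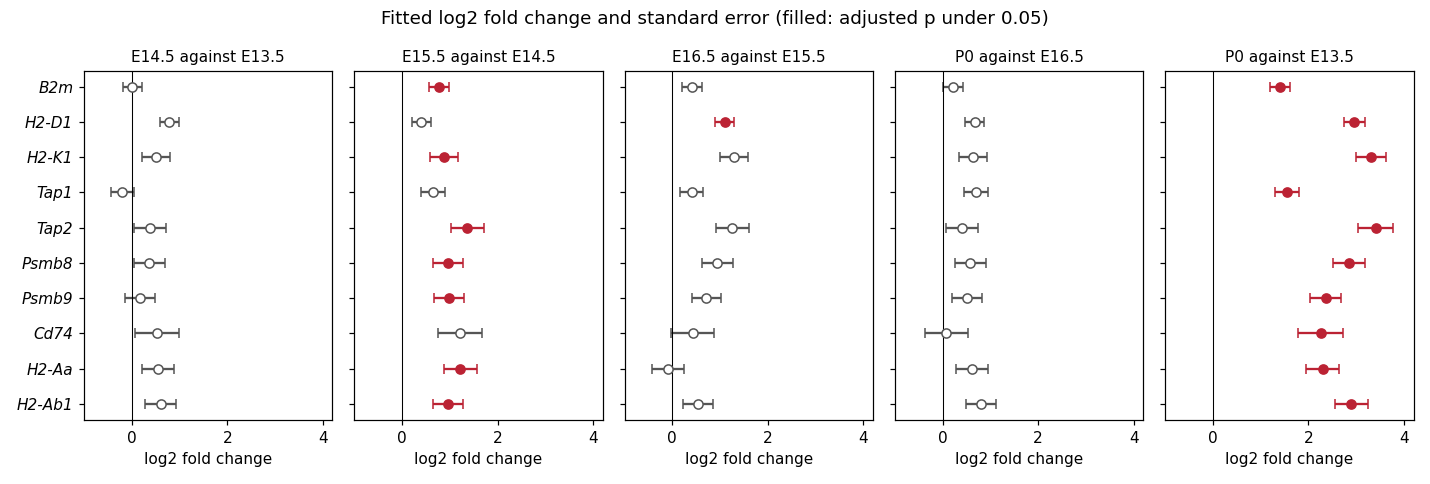
Fitted log2 fold changes with standard errors of the 10 genes in the 4 steps between neighbouring stages and between E13.5 and P0, filled where the adjusted p was under 0.05. The filled points number 0, 7, 1 and 0 in the 4 steps and 10 between E13.5 and P0.

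Most of the calls between neighbouring stages fell in the step from E14.5 to E15.5, as did most of those among all tested genes. In the first step, E14.5 against E13.5, 0 of 10 genes passed by edgeR, where 0.00903% of tested genes did. At an unadjusted p under 0.05 there was 1 (3538 of the 22151 tested genes reached it), H2-D1, with a log2 fold change of 0.79 (SE 0.20, adjusted p = 0.127), which DESeq2 called (adjusted p = 0.0183). In that step the libraries of H2-D1, H2-K1 and H2-Ab1 did not overlap and were higher at E14.5, as for 15.6% of tested genes. In E15.5 against E14.5, 7 of 10 genes were higher and 0 lower, where 12.7% of tested genes were higher and 13.4% lower. Tap2 had the largest log2 fold change, 1.37 (SE 0.34, adjusted p = 0.0132), followed by H2-Aa at 1.22 (SE 0.34, adjusted p = 0.0205). B2m had 0.77 (adjusted p = 0.0185) and H2-K1, Psmb8, Psmb9 and H2-Ab1 had 0.88 to 0.97, with adjusted p of 0.0383 to 0.0443. Those that did not pass were H2-D1 at 0.40 (adjusted p = 0.147), Tap1 at 0.64 (adjusted p = 0.0695) and Cd74 at 1.21 (adjusted p = 0.0668). This count changed when single libraries were left out. Without replicate 1 or 2 of E14.5, or without replicate 2 of E15.5, there were 0 calls. Leaving out replicate 3 of E15.5 gave 2, while all 10 log2 fold changes stayed positive in these fits. Such fits have fewer samples, and the share of all tested genes they called is not set beside these counts. Whether the loss of calls is particular to the 10 genes was not tested.

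In E16.5 against E15.5, 1 of 10 genes was higher, where 1.03% of tested genes were: H2-D1, with a log2 fold change of 1.10 (SE 0.20, adjusted p = 0.0284). H2-K1 had 1.29 (adjusted p = 0.0503) and Tap2 1.26 (adjusted p = 0.0777), while H2-Aa had -0.09 (adjusted p = 0.910). The call for H2-D1 was lost without any one of the 3 E15.5 libraries or without E16.5 replicate 1, and 3 genes passed without E16.5 replicate 3. Here too no share of all tested genes is set beside the reduced fits. In P0 against E16.5, 0 of 10 passed, where 0.352% of tested genes did. All 10 log2 fold changes were positive, from 0.08 for Cd74 to 0.80 for H2-Ab1, 4 had an unadjusted p under 0.05 (11.7% of tested genes), and DESeq2 also called 0. Without E16.5 replicate 1, H2-D1 passed with a log2 fold change of 0.96 (adjusted p = 0.0237). Whether the steps differ from one another was not tested. The 3 E16.5 libraries held 1 to 3 counts of the Y-linked gene Ddx3y, so that stage and the sex of the embryos cannot be told apart in these steps. Low counts of Ddx3y (5 to 14) were also seen in E13.5 replicate 1, E15.5 replicate 1 and P0 replicate 2. All 10 genes were higher in the last of these libraries than in the first. In proportion this was least for B2m, at 50.9 and 119.5 CPM, and most for Tap2, at 1.69 and 20.7 CPM. That sets 1 library against 1, with no share of all genes beside it, and carries no test. The X-linked gene Xist ranged from 1.87 to 1536 CPM at E13.5 and from 1.61 to 358.9 CPM at P0. At E14.5 it ranged from 1.54 to 407.4 CPM and at E15.5 from 1.56 to 713.3 CPM. The sex of the pooled embryos thus also varied in those stages, and its part in their contrasts was not tested.

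The 10 genes also varied together between libraries of a stage. At E16.5 replicate 1 was the highest library for 10 of 10 genes, against 28.7% of the 16520 genes with a mean of at least 1 CPM. Its log2 CPM lay above the stage mean by 0.10 for B2m and by 0.99 for Cd74, the smallest and largest of the 10 deviations. In the same library the summed myeloid markers stood at 582.8 CPM against 428.5 and 538.8 CPM in its stage, and the summed endothelial markers at 795.8 CPM against 484.3 and 489.9 CPM. Neutrophil markers summed to 163.5 CPM against 77.0 and 57.7 CPM and B cell markers to 5.65 CPM against 3.15 and 2.91 CPM. Epithelial markers were lowest there, at 873.4 CPM against 1161 and 1961 CPM, as were palatal shelf markers, at 201.5 CPM against 293.6 and 366.5 CPM. Dendritic cell markers and T and NK cell markers, at 20.3 and 1.597 CPM, were not the highest of the stage. The part of any of these lists in the result was not tested. At E14.5 replicate 3 was the highest for 8 genes (48% of the genes with a mean of at least 1 CPM were highest there), at E13.5 replicate 3 for 7 genes (46.2%) and at P0 replicate 1 for 7 genes (20.8%). Over deviations from the stage means in the 15 libraries, where the genes of a pair share each library, 44 of 45 pairs of the 10 genes correlated positively, with Pearson's r from -0.28 for B2m and H2-D1 to 0.93 for Tap1 and H2-Aa and a median of 0.645. This is a description of these libraries. No pairs of other genes were set beside these, so the values are not shown to be particular to the 10 genes.

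**Figure D4:**
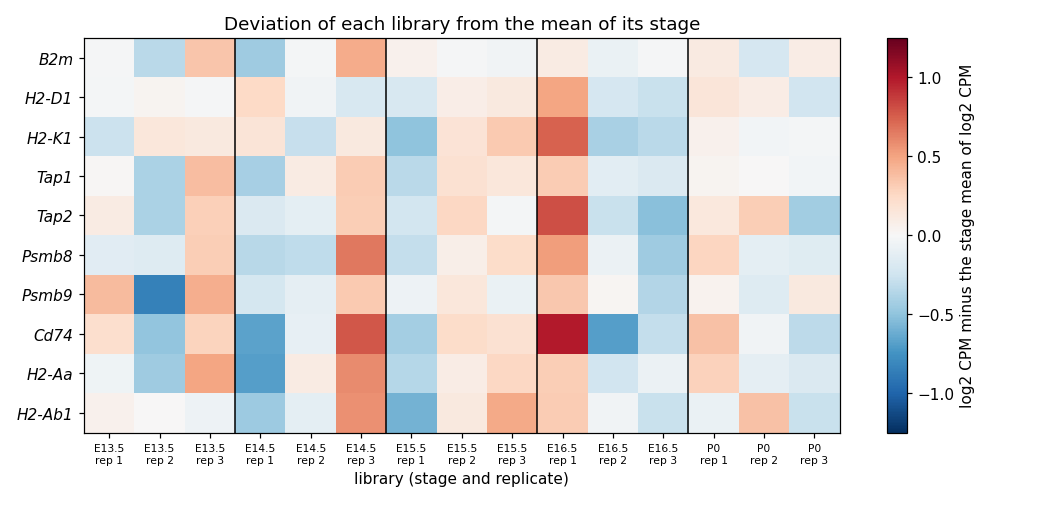
Log2 CPM of each gene in each library minus the mean of its stage (red above, blue below). The column of E16.5 replicate 1 is above the stage mean in 10 of 10 genes, most for Cd74.

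The wider class I pathway moved in part with the 10 genes. Of 21 further class I genes, all tested, 15 were higher and 1 lower at P0 than at E13.5 (29.8% of tested genes were higher and 26.8% lower), with a median log2 fold change of 1.12. Nlrc5, the transactivator of class I genes, went from 0.462 ± 0.0492 to 2.44 ± 1.04 CPM (mean ± SD, n = 3), a log2 fold change of 2.39 (SE 0.31, adjusted p = 5.97e-05). Fcgrt, the neonatal Fc receptor that also pairs with beta-2 microglobulin, went from 26.4 ± 9.80 to 137 ± 28.02 CPM (log2 fold change 2.38, adjusted p = 6.32e-05). H2-T23, a non-classical class I chain, went from 9.07 ± 2.21 to 27.99 ± 6.24 CPM (log2 fold change 1.62, adjusted p = 0.000822). The peptide-loading genes did not move as one. Tapbp, which bridges the transporter and the class I chain, had a log2 fold change of 1.33 (adjusted p = 0.000120), and the trimming enzyme Erap1 one of 1.16 (adjusted p = 0.00108). The general chaperone of the endoplasmic reticulum Canx was lower, from 360.5 ± 21.02 to 241 ± 22.1 CPM (log2 fold change -0.58, adjusted p = 0.000439), while Calr had -0.17 (adjusted p = 0.419) and Pdia3 0.15 (adjusted p = 0.467). Tapbp, Erap1, Calr and Pdia3 fell outside the naming rule and were chosen after their values were seen.

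Of 16 further class II genes, all tested, 9 were higher and 2 lower at P0 than at E13.5 (29.8% and 26.8% of all tested genes), with a median log2 fold change of 1.22. H2-Eb1, a further beta chain, went from 0.777 ± 0.223 to 3.81 ± 0.682 CPM (log2 fold change 2.29, SE 0.30, adjusted p = 5.56e-05), and Ifi30, a lysosomal thiol reductase that prepares antigens, from 15.1 ± 2.31 to 67.4 ± 20.1 CPM (log2 fold change 2.16, adjusted p = 2.00e-05). H2-Ob, a chain of the modulator of peptide loading H2-O, had 4 counts in the E13.5 libraries together and 340 at P0, a ratio of 193 after scaling for depth (95% exact interval 74.5 to 711, counting error only). Its partner chain H2-Oa had a log2 fold change of 0.28 (adjusted p = 0.727). Of the transcription factors of class II genes, Rfx5 was lower, from 33.6 ± 4.06 to 18.4 ± 4.02 CPM (log2 fold change -0.87, adjusted p = 0.00132), and so was Rfxank, from 37.05 ± 4.47 to 25.9 ± 1.92 CPM (log2 fold change -0.51, adjusted p = 0.00642). Ciita, the class II transactivator, was higher, with 0.172, 0.141 and 0.193 CPM at E13.5 and 0.804, 0.122 and 0.957 CPM at P0 (log2 fold change 1.87, adjusted p = 0.0172). Its P0 replicate 2 lay below all 3 E13.5 libraries, so the groups overlapped. H2-Oa and Ciita fell outside the naming rule and were chosen after their values were seen.

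Genes of interferon signalling and response, listed because interferons regulate the antigen presentation genes, were higher in 27 and lower in 2 of 34 tested at P0 against E13.5 (29.8% and 26.8% of all tested genes), with a median log2 fold change of 1.86. The largest were Isg15, a ubiquitin-like protein, from 0.558 ± 0.247 to 9.56 ± 2.31 CPM (log2 fold change 4.09, SE 0.42, adjusted p = 1.31e-05), Irf7, a transcription factor of the response, from 0.955 ± 0.236 to 15.6 ± 1.31 CPM (4.02, adjusted p = 4.47e-06), and Ifit3 from 0.477 ± 0.103 to 6.71 ± 1.73 CPM (3.81, adjusted p = 6.61e-06). The receptor chain Ifnar1 was lower, from 111 ± 5.90 to 83.7 ± 8.39 CPM (-0.41, adjusted p = 0.00440), as was the kinase Tyk2, from 34.3 ± 2.11 to 26.5 ± 0.585 CPM (-0.37, adjusted p = 0.00490). The genes for the interferons themselves on the list, Ifng and Ifnb1, could not be tested: Ifng had 1 count in a single E14.5 library and Ifnb1 had 0 counts in every library, which allows up to 0.0435 to 0.140 CPM. In the step from E14.5 to E15.5, in which 7 of the 10 antigen presentation genes were higher, 13 of these 34 were higher and 1 lower (12.7% and 13.4% of all tested genes). In the same step 12 of 16 markers of myeloid cells and macrophages were higher and 0 lower, so this timing is not particular to interferon genes. No link between interferon genes and the 10 genes was tested.

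**Figure D5:**
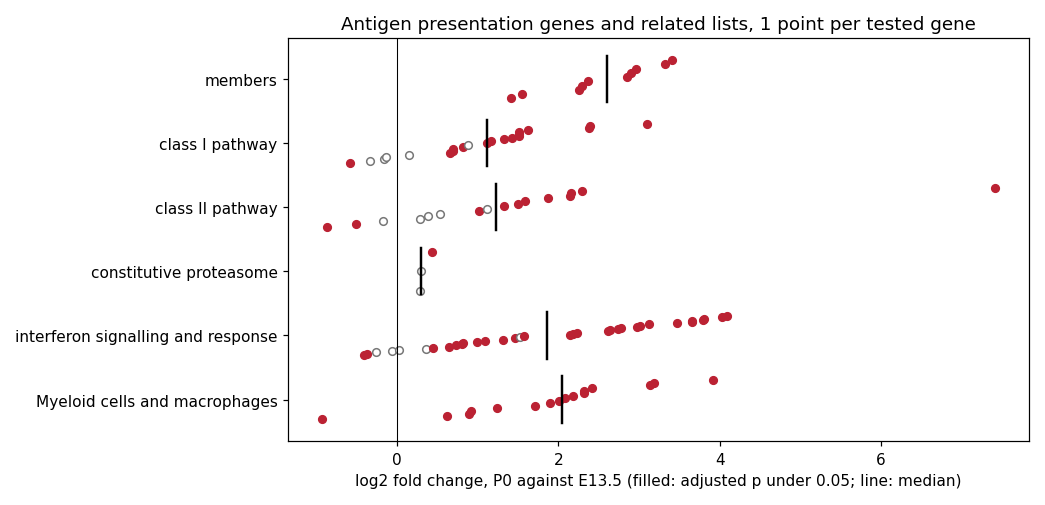
Fitted log2 fold changes of P0 against E13.5 for the 10 antigen presentation genes and 5 related lists, with 1 point a tested gene, filled where the adjusted p was under 0.05, and a line at each median. The medians are 2.61 for the 10 genes, 1.12 and 1.22 for the class I and class II lists, 0.29 for the constitutive proteasome, 1.86 for interferon genes and 2.04 for myeloid markers.

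Most markers of myeloid cells were higher at P0, as the 10 genes were. Of 16 markers of myeloid cells and macrophages 15 were higher and 1 lower at P0 than at E13.5 (29.8% and 26.8% of all tested genes), with a median log2 fold change of 2.04. Their summed level was 116 to 184 CPM at E13.5, 160.5 to 222 at E14.5, 345 to 363 at E15.5, 428 to 583 at E16.5 and 615 to 886 at P0, so the P0 libraries lay above all others. Lyz2, a lysozyme, went from 9.37 ± 3.65 to 142 ± 47.1 CPM (log2 fold change 3.92, adjusted p = 4.40e-06), Cd68 from 5.82 ± 0.690 to 52.8 ± 20.6 CPM (3.18, adjusted p = 9.66e-06) and the signalling adaptor Tyrobp from 5.81 ± 1.39 to 50.9 ± 15.1 CPM (3.13, adjusted p = 4.54e-06), while the chemokine receptor Cx3cr1 was lower, from 11.1 ± 1.79 to 5.82 ± 1.21 CPM (-0.93, adjusted p = 0.00126). The sum of Cd74, H2-Aa and H2-Ab1 over the sum of these markers was 0.0234, 0.0226 and 0.0205 in the E13.5 libraries and 0.0234, 0.0326 and 0.0245 in the P0 libraries. These overlapped, and the ratio was 1.20 times as high at P0 (exact permutation test, p = 0.2). This overlap depends on the markers summed: with Lyz2 left out of the sum, every P0 ratio lay above every E13.5 ratio. Lyz2 alone gave 185.9, 146.9 and 92.1 CPM of the P0 sums and 7.88, 6.69 and 13.5 CPM of the E13.5 sums. The sum of H2-D1 and H2-K1 over the same markers was 0.138, 0.197 and 0.121 and 0.224, 0.307 and 0.266, which did not overlap, 1.77-fold higher at P0 (exact permutation test, p = 0.1). The difference between these ratios was not tested, nor was the part of the myeloid cells in either.

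Markers of other cell types were counted beside these, against 29.8% of all tested genes higher and 26.8% lower in the same contrast. Of 9 markers of dendritic and Langerhans cells 6 could be tested, and 1 was higher and 2 lower at P0, Clec9a and Siglech, which fell outside the naming rule. The integrin Itgax was the one higher, from 0.182 ± 0.0420 to 2.72 ± 1.27 CPM (log2 fold change 3.89, adjusted p = 1.16e-05), Xcr1 had 0 counts in every library, Cd207 and Cd209a had at most 3 and 10 counts in any, and the summed level of the list was 13.3 to 24.5 CPM at E13.5 and 14.01 to 23.7 CPM at P0. Most of that sum was Zbtb46 (log2 fold change -0.22, adjusted p = 0.539), and without it the sum was 1.49 to 2.36 and 2.65 to 6.07 CPM. Of 6 B cell markers 5 could be tested, with 4 higher and 1 lower, and their sum was 1.62 to 47.8 CPM at E13.5 and 4.80 to 7.32 CPM at P0. The one lower was Pax5 (log2 fold change -3.72, adjusted p = 0.0237), with 4.94, 46.9 and 0.223 CPM at E13.5 and 0.665, 1.89 and 1.39 CPM at P0. E13.5 replicate 2 held most of it and E13.5 replicate 3 lay below all P0 libraries. Without Pax5 the B cell sum was 0.859 to 1.40 CPM at E13.5 and 4.13 to 5.42 CPM at P0. Cd79b, a chain of the B cell receptor, went from 0.667 ± 0.228 to 2.45 ± 0.791 CPM. Of 8 T and NK cell markers 3 could be tested and Cd4, which macrophages can also express, was higher, from 0.222 ± 0.0783 to 1.27 ± 0.227 CPM (2.51, adjusted p = 0.000291). Cd3e and Cd8a had at most 7 and 3 counts in any library. The list had a sum of 0.535 to 0.772 CPM at E13.5 and 1.74 to 2.57 CPM at P0. Of 8 neutrophil markers 7 were tested and 5 were higher, with a sum of 3.66 to 10.02 CPM at E13.5 and 101 to 274 CPM at P0. Ltf, lactoferrin, which secretory epithelia also make, held most of the P0 sum, from 0.654 ± 0.321 to 152 ± 84.3 CPM (7.86, adjusted p = 5.79e-06), and without it the mean sum was 5.355 CPM at E13.5 and 32.8 CPM at P0. Retnlg went from 0.0586 ± 0.0541 to 2.76 ± 0.730 CPM (adjusted p = 0.000123) and S100a9 from 1.83 ± 1.26 to 18.1 ± 3.18 CPM (3.30, adjusted p = 0.000473). Epithelial markers were higher in 5 of 7, with log2 fold changes of 3.10 for Krt5, 2.35 for Krt8 and 2.18 for Krt14. Endothelial markers were higher in 4 of 8, among them Pecam1 (1.24), Cldn5 (0.99) and Tie1 (0.66), and Erg was lower (-1.06). By the same test 4 of 8 markers of palatal shelf tissue were lower and 0 higher, among them Tbx22 (-4.78), Shox2 (-2.68) and Prrx1 (-1.78). The part of these lists in the rise of the 10 genes was not tested.

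Genes whose course was most like that of a class I, a transporter and a class II gene were named by Pearson's r of log2 CPM over the 15 libraries, among 16509 genes. For B2m these were Serpinb6a and Anxa7 (r = 0.990 each), Plp2 and Cd63 (0.986 each) and Ppic (0.985). For Tap1 they were Bik (0.987), Sdc4 (0.985), Nmi (0.984), Oasl1 (0.982) and 4930523C07Rik (0.977). For H2-Ab1 they were Ccl20, Cebpb, Srgn and Anxa1 (0.977 each) and Tmem154 (0.976). All libraries share the course of age, so these values describe likeness of course and carry no test. Among the 10 genes themselves r ran from 0.836 to 0.982 over the 45 pairs, with a median of 0.927.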

How the data were processed

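Messenger RNA was measured by bulk RNA sequencing in 15 libraries. The deposited table holds counts per gene that the authors made, per the file headers, with featureCounts 2.0.1 on GENCODE M18, counting read pairs on the reverse strand. Per the submitters' processing notes, cutadapt 3.4, HISAT2 2.2.1, SAMtools 1.12 and mm10 were used. Stages came from the labels. Symbols and positions were compared with GENCODE M21 on GRCm38 (54079 of 54232 identifiers had a symbol).

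Genes were filtered with filterByExpr by stage (minimum count 10), TMM-scaled and fitted over all 15 libraries in edgeR 4.0.16 under R 4.3.3 with 1 coefficient per stage. The quasi-likelihood F test was adjusted by Benjamini-Hochberg over 22151 genes, threshold 0.05. Levels are TMM-scaled CPM, correlations used log2 CPM (prior count 2), and CPM per kb used the exon lengths of the table. Depth was 21.5 to 69.0 M counts a library, and floors of 3 counts cover counting error only. The chi-square per degree of freedom between libraries of a stage was 29.5 to 225 over 15 pairs.

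All 10 members were named. Of each further list, the 3 largest changes in each direction between P0 and E13.5 that passed 0.05 after adjustment and reached a stage mean of 1 CPM were named, and the 5 genes most like B2m, Tap1 and H2-Ab1. Members and lists were chosen with earlier results of these data known. Alternatives were DESeq2 1.42.0, other normalizations and filters, only the libraries of a contrast, a replicate block, and leaving out each library. The procedure was tested on simulated data.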

Additional observations from a re-analysis of the deposited data

How the results depend on the processing

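The count of antigen presentation genes called between E13.5 and P0, and across the 5 stages, was 10 under every alternative run, and no log2 fold change or ratio called in the report changed sign. The share of all tested genes called in each alternative is not set beside these counts, so they describe the 10 genes only. DESeq2 called 1 gene in E14.5 against E13.5 and 4 in E16.5 against E15.5. Without a filter on low counts, or with only the 6 libraries of the contrast, 4 genes were called in E15.5 against E14.5, and with only its 6 libraries 0 were called in E16.5 against E15.5. A mean of at least 1 CPM as the filter gave 2 in E16.5 against E15.5. Upper-quartile scaling called 8 in E15.5 against E14.5, where the median over all tested genes went from 0.03 to 0.16 (log2). Leaving out each library gave 0 to 0 calls in E14.5 against E13.5, 0 to 7 in E15.5 against E14.5, 0 to 3 in E16.5 against E15.5, 0 to 1 in P0 against E16.5 and 10 to 10 in P0 against E13.5. These fits have fewer samples, and where the filter differs another number of genes is tested; beyond that the cause was not tested. With the replicate number as a block, 0, 5, 1 and 0 genes were called in the 4 steps and 10 between P0 and E13.5. The correlation of same-numbered deviations exceeded 0.1 in at most 1 pair of each comparison. In the 4 steps that pair was replicate 3, at 0.548, 0.207, 0.203 and 0.472. Between P0 and E13.5 replicate 3 had 0.038. The labels state no pairing by replicate number. Of the 10 genes Psmb9 at E13.5 had the fewest counts, 21 to 49 a library.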
